A study of Mus musculus with 8 samples.

Results

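Cytosolic ribosomal proteins are the protein parts of the ribosome that translates nuclear-encoded messages. In all, 76 of the 31492 array IDs (the rows of the bead table, each standing for 1 probe or the average of several) carried the name of such a gene: RPL or RPS followed by a digit, or RPLP or RPSA, without S6 kinases, pseudogene entries and LOC models. The 72 IDs described here had a mean bead signal over 200 across the 8 arrays, 29 from the small subunit, 41 from the large subunit and 2 from the stalk. The other 4 IDs had mean signals of 157 (Rps15a), 89.4 (Rpl6), 68.4 (Rpl14) and 67.5 (Rpl3l), and those just inside the threshold had 442 (Rpl22), 772 (Rpl21) and 981 (Rpl30). Rps15a was detected on all 8 arrays by the deposited detection p-value although it missed the threshold. Signals of different IDs depend on their probes, so these figures give no order of transcript level between genes. Rplp0, Rpsa, Rps9 and Rpl22l1 had no row under these names and are not analysed here.

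The cells were intraepithelial lymphocytes (IEL), T cells that lie between the epithelial cells of the gut, taken from C57BL/6 mice. Before sorting into CD8αβ and CD8αα cells, all groups were activated for 48 h by plate-bound anti-CD3 (1 µg/ml) plus a mix of interleukins (2, 3, 4 and 15) and then expanded for 14 days in interleukin 2. Each subset was measured as total RNA at 0 h, without renewed stimulation, and after 24 h on plate-bound anti-CD3 at 1 µg/ml, an antibody that triggers the T cell receptor, which gives 4 groups of 2 arrays. No group spent 24 h without anti-CD3, so anti-CD3 and 24 h more in culture cannot be told apart, and "response" below means 24 h against 0 h. The labels give the CD8αβ cells an αβ receptor but name the receptor of the CD8αα cells in 3 different ways. No label says whether replicates came from separate cultures or mice, so the p-values measure the spread between these arrays, which may be technical. The arrays report an average of the RNA loaded, so fewer cells of a type and less RNA per cell cannot be told apart. The cells had been cultured for weeks and stand for expanded IEL, not for IEL as they leave the gut.

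A ribosome joins a small subunit, which reads the message, to a large subunit, which forms peptide bonds. Most ribosomal proteins, those of the stalk aside, are normally present in a single copy per ribosome. Their messages are abundant and most start with a run of pyrimidines (C and T in the DNA), the terminal oligopyrimidine tract, through which their translation follows the mTOR pathway. In T cells, activation through the receptor is known for raising ribosome production and translation. Rpl22, a large subunit protein, is known in the mouse for its need in the development of αβ T cells, with γδ T cells largely spared when it is lost.

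The DNA around the annotated start sites held a run of C and T in part of the genes. The windows printed below are from some of the genes that the results name and are no sample of the 72. For 52 of the 72 genes the RefSeq table (build GRCm38.p6) held a start site. A run of 8 or more C or T letters on the sense strand, within 15 bases either side of the start, stood in 22 of these 52 genes (42.3%), against 13.9% of all 27025 genes of the table. The letters CTTTCC lay in the 300-base promoter window (250 bases before the start to 50 after) of 21 genes on the sense strand (40.4%, against 16.01% of all genes) and of 27 on either strand (51.9%, against 29.3%). These are matches of letters, not shown sites. A run may also lie wholly before the start, outside the message, as do those printed for Rps27l and for both starts of Rpl22. The share of genes with a run is therefore no count of messages that begin with such a tract. The windows of 30 bases are given 5′ to 3′, with the longest run of C and T in capitals, for Rpl35 (chr2:39005117-39005146, minus strand), Rpl13a (chr7:45128731-45128760, minus), Rplp2 (chr7:141447636-141447665, plus), Rps27 (chr3:90213634-90213663, minus), the first annotated start of its paralog Rps27l (chr9:66946071-66946100, plus) and both annotated starts of Rpl22 (chr4:152324421-152324450 and chr4:152325711-152325740, plus).
Rpl35: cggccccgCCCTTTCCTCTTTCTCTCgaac
Rpl13a: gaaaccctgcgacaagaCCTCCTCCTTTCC
Rplp2: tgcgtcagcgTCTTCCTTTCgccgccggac
Rps27: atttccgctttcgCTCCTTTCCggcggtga
Rps27l: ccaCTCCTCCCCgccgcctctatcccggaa
Rpl22, first start: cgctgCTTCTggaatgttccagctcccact
Rpl22, second start: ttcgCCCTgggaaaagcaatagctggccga
The longest runs among those printed were 18 bases in Rpl35 and 13 in Rpl13a, and neither start of Rpl22 held one over 5. The second start of Rps27l, not printed, held a run of 4. Over the 52 genes the median longest run was 7. Rpl30 had no entry.

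Between 7747 and 9119 IDs were detected per array by a deposited detection p below 0.01, and the summed signal ran from 10731500 to 14782200 units. For the marker genes, detected means a signal at or above the lowest of any 1-probe ID with such a p on that array. The T cell genes (6 of 6) were detected on all 8 arrays, and Cd8b1, the β chain of CD8, read 12.87 to 13.60 in CD8αβ cells and 8.79 to 10.44 in CD8αα cells on the normalized log2 scale. Of markers of other cells, 7 of 8 epithelial, 4 of 5 myeloid, 3 of 5 B cell and 3 of 3 red cell genes were detected on no array, while Igh-6 was detected on all 8, Cd79b on 7, Cdh1 on 5 and Cd68 on 3. These 4 were not level across the groups. Igh-6 read 8.37 and 8.20, then 6.71 and 6.18 in CD8αβ cells, and 10.81 and 10.38, then 7.17 and 7.36 in CD8αα cells. Cdh1 read 7.05 to 8.14 at 0 h and 4.94 to 5.73 at 24 h. Cd68 read 5.29 to 7.39 at 0 h and 4.96 to 5.37 at 24 h, and Cd79b 6.08 to 9.26 and 5.004 to 8.26. The T cell genes were not level either, with a summed signal of 38458 to 50571 units at 0 h and 19640 to 31444 at 24 h. Cd8b1 gave 12715 and 11736, then 6304 and 8893 units in CD8αβ cells. In CD8αα cells 3 genes listed as markers of that subset (Tcrg-V4, Tcrg-V7 and Tcrd-V1) summed to 9047 and 13243, then 2150 and 2427. For other cells, the summed signal of the 5 B cell genes was 655 to 3119 units at 0 h and 416 to 855 at 24 h. That of the 8 epithelial genes was 653 to 789 and 526 to 591, and that of the 5 myeloid genes 350 to 559 and 352 to 375. The part of such cells in the 24 h responses below was not tested. Array signals were corrected for background, quantile-normalized and put on the log2 scale, on which 1 unit is a factor of 2. Across the 72 IDs, the replicates of each group correlated with r between 0.990 and 0.994 on the normalized scale.

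The 72 IDs gave 10.3 to 10.7% of the summed signal on 7 arrays and 11.8% on the CD8αβ 24 h replicate 1 array, which also had the lowest total and the fewest detected IDs. Since 38 of the 100 brightest IDs were ribosomal protein genes, quantile normalization, which gives every array the same distribution, fixes much of their summed level. Scaling each array to the median of its tested IDs does not. The median of the 72 IDs moved from 14.16 under quantile normalization to 14.46 under median scaling on that array, whereas the other 7 arrays lay between 14.01 and 14.12 under the first and between 13.93 and 14.08 under the second. Whether this array or the scaling is nearer to the cells was not tested.

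**Figure D1:**
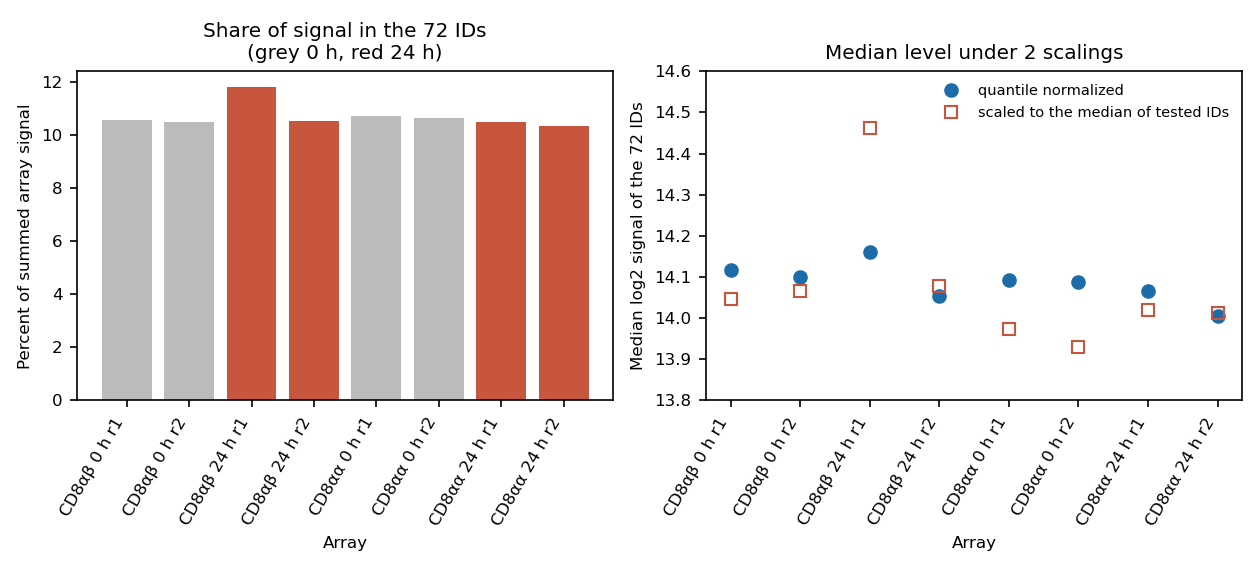
Left, percent of the summed signal of each array given by the 72 ribosomal protein IDs (bars, grey 0 h and red 24 h); right, the median normalized log2 signal of the 72 IDs on each array under quantile normalization (filled circles) and median scaling (open squares). The CD8αβ 24 h replicate 1 array stands at 11.8% and at 14.46 under median scaling, above the other 7 arrays.

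After 24 h most ribosomal protein transcripts lay closer to their 0 h level than most other transcripts did, but the direction of their small shifts rests on the scaling. The median mean response was −0.016, with 32 IDs positive and 40 negative, under quantile normalization and 0.14, with 63 positive and 9 negative, under median scaling. Averaged over both subsets, 66 of the 72 IDs (91.7%) had a response within 0.25 log2 units of 0, against 34.2% of all 9554 IDs tested and 57.7% of the 123 other IDs with a mean signal over 10000. Under median scaling these shares were 77.8%, 33.9% and 58.5%. In limma, 2 of the 72 passed at an adjusted p of 0.05, both lower at 24 h, where 26.6% of all IDs passed (13.8% lower and 12.9% higher). Of the 123 other bright IDs 14.6% passed. A p above the threshold does not show that a gene kept its level. For 58 of the 72 (80.6%) the 95% interval of the response lay within 0.5 log2 units of 0. This held for 14.7% of all IDs and 45.5% of the 123 other bright IDs. Under median scaling it held for 28 of the 72 (38.9%), against 13.1% and 26.8%. In simulated data the same fit recovered 0% of 1.41-fold and 48% of 2-fold changes of the mean response. The simulated spread was modelled on all IDs, which had a median residual SD of 0.266 against 0.105 for the 72. Fewer IDs changed in it than passed in the data, so these shares do not give the reach of the fit for the 72.

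Rpl22 was among the IDs that fell. It read 9.24 and 8.98 in CD8αβ cells at 0 h and 8.01 and 8.17 at 24 h. In CD8αα cells it read 9.04 and 8.30 at 0 h and 8.15 and 7.91 at 24 h. All 4 arrays at 24 h lay below all 4 at 0 h, with the CD8αα 0 h replicate 2 array closest to them. The mean response was −0.83 (SE 0.20, 1.77-fold lower, limma adjusted p = 0.0261), and the subsets taken alone gave −1.02 (SE 0.28, adjusted p = 0.0903) in CD8αβ cells and −0.63 (SE 0.28, adjusted p = 0.184) in CD8αα cells. The mean signal of Rpl22 lay nearest to the threshold of 200, and with the background taken from all IDs its mean response was −0.25 (adjusted p = 0.0603).

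The call was also lost on all 8 arrays when no filter was set on the IDs, and in several fits on fewer arrays. CD8αα replicate 2 was read on a second chip at both times. On the 6 arrays of the first chip the mean response of Rpl22 was −0.95 (adjusted p = 0.0614), and with chip as a block over all 8 arrays the adjusted p was 0.0135. Leaving out any 1 array gave −1.01 to −0.64, past the threshold in 2 of 8 cases.

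**Figure D2:**
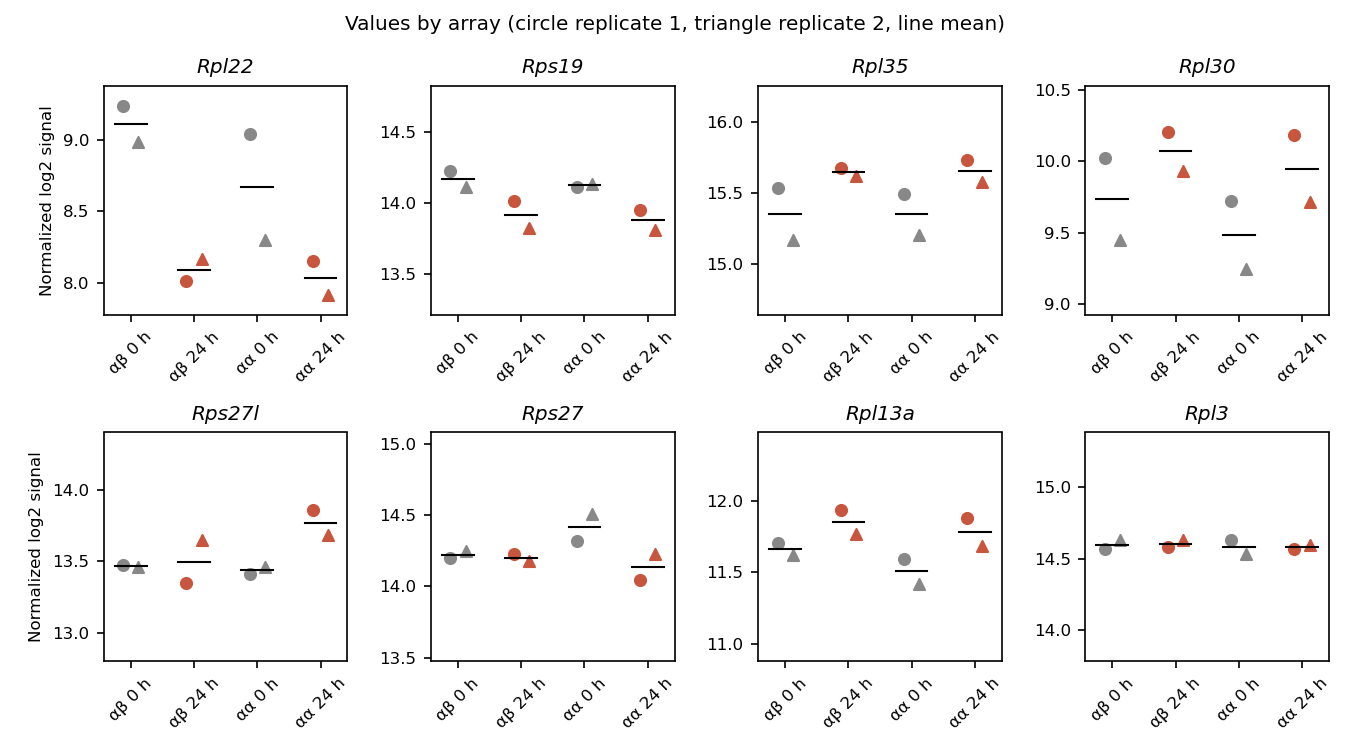
Normalized log2 signal of 8 ribosomal protein genes on each array (circles replicate 1, triangles replicate 2, grey 0 h, red 24 h, lines the group means; each panel has its own range). Rpl22 is lower on all 4 arrays at 24 h; Rps19 and Rpl35 also do not overlap between times, by smaller steps and without passing the test.

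Of the 72 IDs, 4 had all 4 arrays at 24 h below all 4 at 0 h, and 3 had them above, against 15.8% and 16.4% of all IDs. Under median scaling the counts were 2 below and 9 above, against 14.0% and 17.6%. Besides Rpl22, those under quantile normalization included Rps19 of the small subunit, lower at 24 h, and Rpl8 and Rpl35 of the large subunit, higher. Rps19, the gene most often mutated in human Diamond-Blackfan anaemia, had a mean response of −0.25 (SE 0.12, adjusted p = 0.172), from 14.11 to 14.22 at 0 h to 13.81 to 14.02 at 24 h. Under median scaling Rps19 did not keep this separation, with a mean response of −0.072.

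Rpl35, which sits at the exit of the peptide tunnel, read 15.53 and 15.17, then 15.68 and 15.62 in CD8αβ cells. In CD8αα cells it read 15.49 and 15.21, then 15.73 and 15.58. All 24 h arrays lay above all 0 h arrays under both scalings, but the spread between replicates at 0 h was wide and the mean response of 0.30 (SE 0.15, adjusted p = 0.167) did not pass. Rpl8 had a mean response of 0.11 (SE 0.11, adjusted p = 0.506). Under median scaling the mean response of Rpl8 was 0.25, but its arrays overlapped between times. Rpl30 had the highest fitted mean response, 0.40 (SE 0.21, adjusted p = 0.199), and its arrays overlapped between times. It read 10.02 and 9.45 at 0 h and 10.21 and 9.93 at 24 h in CD8αβ cells, and 9.72 and 9.25, then 10.18 and 9.71, in CD8αα cells.

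**Figure D3:**
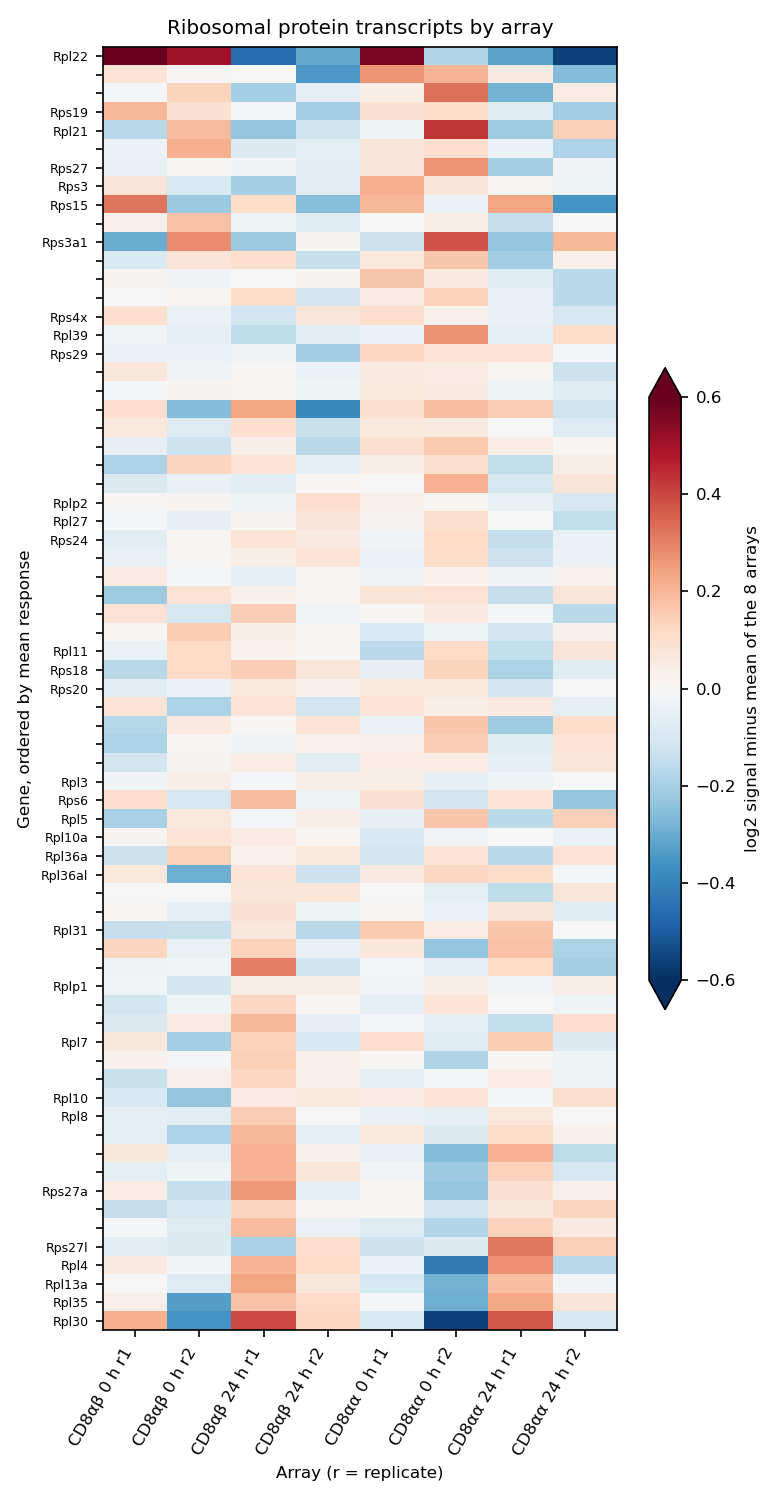
Normalized log2 signal of 69 of the 72 ribosomal protein IDs on each of the 8 arrays, as the difference from the ID's mean over the arrays (red higher, blue lower, scale ending at 0.6 in both directions), ordered by mean response, with the genes described in the text labelled. Rpl22 at the top is lower on the 24 h arrays, and most other rows show no step between the times.

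In the stalk, which recruits elongation factors, the IDs of Rplp1 and Rplp2 had narrow ranges under quantile normalization. Rplp1 read 15.58 to 15.73 over the 8 arrays, at the very top of the signal range, where quantile normalization sets identical values on several arrays. Under median scaling it read 15.51 to 16.19, highest on the CD8αβ 24 h replicate 1 array, with a mean response of 0.23 (adjusted p = 0.294). Rplp2 read 12.76 to 12.96, and 12.74 to 13.08 under median scaling. Under quantile normalization their mean responses were 0.051 (SE 0.11, 95% interval −0.22 to 0.32) and −0.034 (SE 0.11, interval −0.31 to 0.24). The 5S particle, in which Rpl5 and Rpl11 carry the 5S RNA and can bind Mdm2, the inhibitor of p53, gave mean responses of 0.0069 (SE 0.14) for Rpl5 and −0.019 (SE 0.13) for Rpl11.

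The 29 small subunit IDs had a median mean response of −0.020 and a range of −0.34 to 0.19, and none passed in limma. An unadjusted p under 0.05 was reached by 1 of the 29, against 3976 of all 9554 IDs. Rps6, whose protein is the substrate of the S6 kinases, read 12.96 to 13.38 and had a mean response of 0.0053 (SE 0.14). Rps27a, made as a fusion with ubiquitin, gave 0.16 (SE 0.14, adjusted p = 0.424). Rps3, which lines the entry of the message channel, gave −0.14 (SE 0.12, adjusted p = 0.410), and Rps4x, encoded on the X chromosome, −0.096 (SE 0.12, adjusted p = 0.580).

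The 41 large subunit IDs had a median mean response of 0.0016 and a range of −0.83 to 0.40, and the 2 IDs that passed, Rpl22 included, were among them. Rpl3, which reaches toward the peptidyl transferase centre, had the smallest fitted mean response of those named, 0.0016 (SE 0.11), and read 14.53 to 14.63. Rpl10, which joins the subunit late in its assembly, gave 0.10 (SE 0.12), Rpl7 0.056 (SE 0.14), Rpl39, in the exit tunnel, −0.082 (SE 0.13) and Rpl10a, of the L1 stalk, 0.0071 (SE 0.11). Rpl13a, known in human cells for a second role in silencing inflammatory messages, gave 0.23 (SE 0.13, adjusted p = 0.211) and Rpl4 0.21 (SE 0.16, adjusted p = 0.347). None of these passed.

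Paralogs and their parent genes were read by separate IDs. Rps27l had responses of 0.029 (SE 0.18) in CD8αβ and 0.33 (SE 0.18, adjusted p = 0.270) in CD8αα cells, and Rps27, its parent, −0.022 (SE 0.17) and −0.28 (SE 0.17, adjusted p = 0.323). The difference between paralog and parent was not tested. Rpl36al and Rpl36a had mean responses of 0.028 (SE 0.14) and 0.0089 (SE 0.14). Many ribosomal protein genes have near-identical processed pseudogenes, so a probe may also read their transcripts, and 36 of the 72 IDs average several probes.

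In CD8αβ cells 0 of the 72 IDs passed in limma, where 2.49% of all IDs did. An unadjusted p under 0.05 was reached by 2 of the 72, against 2365 of all 9554 IDs. The median response of the 72 was 0.043, but 0.22 under median scaling. It was −0.0099 without the CD8αβ 24 h replicate 1 array that stands apart in the plot of signal shares. Both 24 h arrays lay above both 0 h arrays for 16 IDs and below them for 9, against 27.5% and 28.4% of all IDs; under median scaling the counts were 25 and 2, against 29.3% and 25.8%. The lowest fitted response was that of Rpl22, and the highest belonged to Rpl30 (0.33, SE 0.30), Rpl35 (0.30, SE 0.21) and Rpl10 (0.22, SE 0.16).

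In CD8αα cells 0 of the 72 passed, where 8.72% of all IDs did. An unadjusted p under 0.05 was reached by 1 of the 72, against 2811 of all 9554 IDs. The median response of the 72 was −0.067 under quantile normalization and 0.071 under median scaling, so its direction rests on the scaling. Both 24 h arrays lay above both 0 h arrays for 8 IDs and below for 23, against 30.6% and 28.6% of all IDs, and under median scaling for 27 and 5, against 32.8% and 26.5%. Rpl30 gave 0.46 (SE 0.30, adjusted p = 0.339) and Rpl35 0.31 (SE 0.21, adjusted p = 0.363).

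The responses of the subsets ran alike across the 72 IDs, with a Pearson r of 0.784 (Spearman 0.679). Over all 9554 IDs it was 0.879. The points share normalization and probes and are not independent, so this is a description. In the test of the difference between the responses, 0 of the 72 passed, as did 0% of all IDs. An unadjusted p under 0.05 was reached by 0 of the 72, against 155 of all 9554 IDs. The median difference, CD8αα minus CD8αβ, was −0.085, and −0.13 under median scaling. It was lowest for Rps18 (−0.31, SE 0.26), Rps27 (−0.26, SE 0.24) and Rpl10 (−0.25, SE 0.23) and highest for Rpl22 (0.38, SE 0.39), Rps27l (0.30, SE 0.26) and Rpl4 (0.14, SE 0.32), each with an adjusted p of 1.00.

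**Figure D4:**
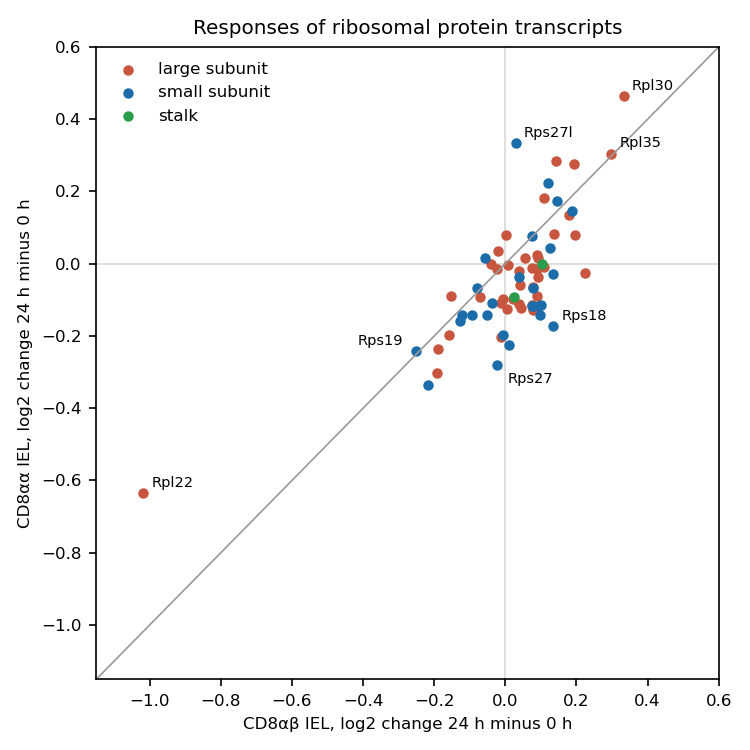
Response (24 h minus 0 h, normalized log2) of 69 of the 72 ribosomal protein IDs in CD8αβ cells (x axis) and CD8αα cells (y axis), coloured by subunit, with the line of equal response. Rpl22 lies apart at the lower left, and the other plotted IDs lie between −0.33 and 0.46 on both axes.

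No ribosomal protein transcript passed the test between the subsets. At 0 h, 0 of the 72 passed, where 0.481% of all IDs did. An unadjusted p under 0.05 was reached by 0 of the 72, against 664 of all 9554 IDs. At 24 h, 0 passed where 0.304% did, with 0 at an unadjusted p under 0.05, against 372 of all 9554 IDs. Over both times 0 passed where 0.858% did. For 64 of the 72 (88.9%) the 95% interval of the subset difference over both times lay within 0.5 log2 units of 0. This held for 30.4% of all IDs and 55.3% of the 123 other IDs with a mean signal over 10000. Under median scaling it held for 25 of the 72 (34.7%), against 27.3% and 32.5%, so there the 72 were close to other bright IDs. The median difference, CD8αα minus CD8αβ, was 0.061 at 0 h and −0.042 at 24 h, and under median scaling −0.083 and −0.22, so the direction at 0 h changes with the scaling. Both CD8αα arrays lay above both CD8αβ arrays for 15 IDs at 0 h and below for 4, against 18.5% and 19.8% of all IDs. At 24 h they did so for 5 and 10, against 11.8% and 11% of all IDs. Under median scaling the counts were 4 and 26 at 0 h, against 16.04% and 23.2% of all IDs, and 1 and 23 at 24 h, against 8.98% and 13.9%.

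Among the highest fitted subset differences at 0 h were those of Rpl31 (0.24, SE 0.18) and Rpl10 (0.23, SE 0.16). Rpl22 had the lowest, −0.44 (SE 0.28, adjusted p = 0.853), and its CD8αα arrays at 0 h were the widest apart of any group of that gene, at 9.04 and 8.30. Rpl4 and Rpl30 gave −0.25 each (SE 0.23 and 0.30). Among the highest at 24 h were Rps27l (0.27, SE 0.18) and Rps29 (0.15, SE 0.17), and the lowest Rps18 (−0.24, SE 0.19), Rps24 (−0.16, SE 0.17) and Rps6 (−0.16, SE 0.20). All 4 CD8αα arrays lay above all 4 CD8αβ arrays for Rps29, a zinc-binding protein of the small subunit, and below them for Rpl10a, 1 of 72 each, against 1.64% and 1.59% of all IDs. Rps29 read 15.40 to 15.53 against 15.20 to 15.39, and Rpl10a 14.62 to 14.72 against 14.73 to 14.80. Under median scaling 0 IDs lay above and 3 below, against 1.32% and 1.80% of all IDs, and the difference of Rps29 turned to −0.15 at 24 h and −0.083 over both times. Over both times Rpl21 gave 0.16 (SE 0.17) and Rpl31 0.18 (SE 0.13).

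Other genes of the ribosome pathway moved more. Of 49 genes of ribosome assembly (nucleolar proteins, RNA polymerase I and their regulator Myc), 35 were tested, and all 35 had a positive mean response, with a median of 0.95. Of these, 28 passed as higher and 0 as lower, against 12.9% and 13.8% of all IDs, and under median scaling 29 passed with a median of 1.02. Mitochondrial ribosomal proteins, which serve translation inside mitochondria, numbered 65, of which 20 passed as higher and 0 as lower, with a median of 0.41 (21 and 0.46 under median scaling). Of 23 translation genes known to share the oligopyrimidine start, 19 were tested, and 1 passed, Hnrnpa1, which was higher (0.63, SE 0.14, adjusted p = 0.0233). Their median was 0.058, and 0.14 with 2 passing under median scaling. By subset, 2 assembly genes passed as higher in CD8αβ cells, where 1.44% of all IDs did, and 11 in CD8αα cells, where 3.69% did. The difference of the responses was not past the threshold for any gene of these lists.

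Precision differed between the lists, which bears on these counts. The median residual SD between replicates was 0.105 for the 72 IDs, 0.315 for ribosome assembly, 0.247 for mitochondrial ribosomal proteins and 0.266 for all IDs. These values are from quantile normalization, which fixes much of the level of the 72. Under it the 72 IDs were the most precisely measured of these lists. They also had the smallest median absolute mean response, 0.067 against 0.39 over all IDs. Under median scaling the intervals within 0.5 log2 units of 0 fell from 58 to 28 of the 72. Their median signal of 17013 lies high in the range of the arrays, where the highest member signal was 60757 and the highest of any ID 63114. Whether signals near that limit were compressed was not tested.

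**Figure D5:**
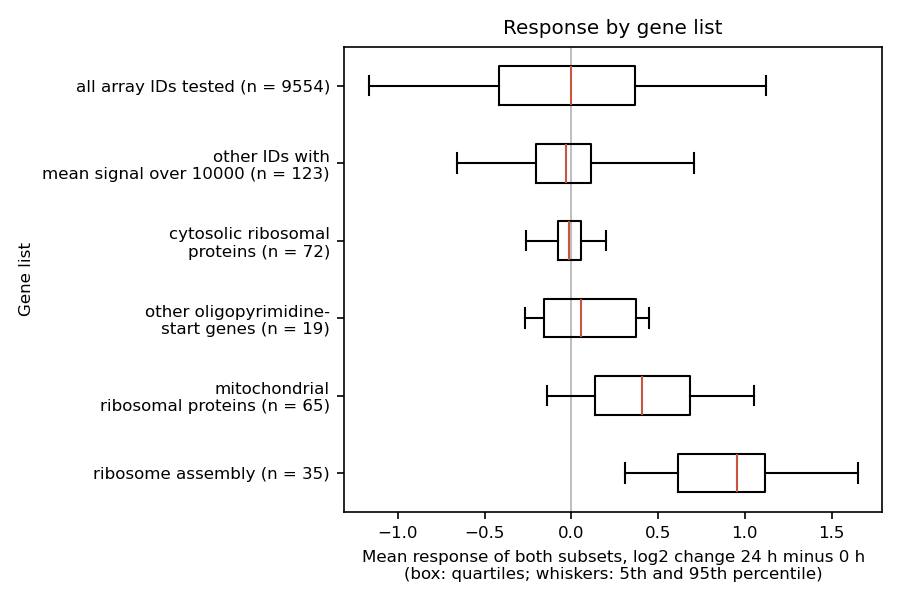
Mean response of both subsets (24 h minus 0 h, normalized log2) by gene list, with boxes for the quartiles, red lines for the medians and whiskers for the 5th and 95th percentile over genes. The 72 ribosomal protein IDs lie closest around 0 with a median of −0.016, and the 35 ribosome assembly genes lie highest with a median of 0.95.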

How the data were processed

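Total RNA of 8 samples was measured on Illumina bead arrays. Per the file headers, the authors deposited for each ID an average bead intensity without normalization, the number of beads (median 44.9 for the 72 IDs), the standard error of the signal over them (median 2.93% of it) and a detection p-value against the array's negative controls. A second deposited table gives log2 expression, for which the submitters' processing notes name lumi with no version; it served as an alternative. Array type, extraction of the bead data and genome build are not given in the sources used here.

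In limma 3.58.1 (R 4.3.3), signals were corrected for background with the normal-exponential model (offset 16, fitted to the 22829 IDs read as single-probe, 72.5%), quantile-normalized and converted to log2. Tested were 9554 of 31492 IDs, those whose detection p was below 0.01 on both arrays of any group or whose mean signal exceeded 200; all 72 ribosomal protein IDs passed, 64 of them by detection p alone. The limma fit used all 8 arrays and 4 group means (4 residual degrees of freedom), with Benjamini-Hochberg adjustment over all tested IDs in each of 7 comparisons. Symbols of the 72 IDs came by Entrez ID (40), accession (22), the platform table (3) or an ID equal to a symbol (7). The ribosomal protein genes, lists, comparisons and alternatives were chosen with earlier results of these data known.

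The genes named are those that passed, the 3 highest and 3 lowest fitted changes per comparison, the stalk, the 5S particle, Rps6, Rps27a, Rpl13a, Rpl10, Rps3, Rps19, Rpl22, paralogs with their parents and the IDs nearest to the signal threshold; Rpl8, Rpl27, Rps20, Rps15 and Rps3a1, where they are named beyond this rule, were chosen after their values were seen. The values of 3 further IDs are not reported here, though counts, medians and tests over the 72 include them. Simulated data for the mean response (9554 IDs) had a spread modelled on all IDs, not on the 72. The share of changes recovered was 0% at 1.41-fold, 48% at 2-fold, 86% at 4-fold and 96% at 8-fold, with 8 unchanged IDs called and 0 of the wrong sign. The number of arrays limits the precision. Alternatives were no or another background correction, median scaling, the submitters' log2 values, other filters, chip or replicate as a block, and leaving out each array. Median-scaled values of the other lists, and values relative to the median of the 72 IDs, were added after the data were seen.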

Additional observations from a re-analysis of the deposited data

Results flagged for a closer look

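Of the 72 IDs, 3 had both 24 h arrays above both 0 h arrays in CD8αβ cells and below them in CD8αα cells, against 0.377% of all IDs with that pattern: Rpl27, Rps20 and Rps24. For Rpl27 the response was 0.077 (SE 0.16) in CD8αβ and −0.13 (SE 0.16) in CD8αα cells, a difference of −0.21 (SE 0.23). Rps20 gave 0.095 (SE 0.16) and −0.12 (SE 0.16), a difference of −0.21 (SE 0.23), and Rps24 0.096 (SE 0.17) and −0.14 (SE 0.17), a difference of −0.24 (SE 0.23). The opposite order of the arrays was not tested as such, and in limma's test of the difference between the responses the adjusted p was 1.00 for each of the 3. Under median scaling 0 IDs of the 72 showed this pattern.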

How the results depend on the processing

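The counts of ribosomal protein IDs that passed were 0 in both subset comparisons, in the mean subset difference and in the difference of the responses under all alternatives run. In the CD8αβ response the replicate block gave 1 (Rpl22, limma adjusted p = 0.0213), where 2480 of all IDs passed. In the CD8αα response 1 passed with no background correction (984 of all IDs passed) and 1 with background from all IDs (418 passed). The submitters' log2 values (889 of all IDs) and chip as a random block (1372) also gave 1 each. With the replicate block 2 passed, Rpl30 included, where 3380 of all IDs did. In the mean response 1 passed under median scaling (Rpl22), where 2442 of all IDs did. The submitters' log2 values gave 4 (Rpl22 and Rps19 included), where 2428 of all IDs passed. The replicate block gave 4, where 4786 of all IDs passed. Rpl22 and, higher, Rpl30 were among these 4, the latter with a limma adjusted p of 0.0189. Without a filter 1 ID other than Rpl22 passed in the mean response, where 1818 of all 31492 IDs did. Leaving out 1 array gave 0 to 2 there, with 0 without either CD8αβ 0 h array, CD8αβ 24 h replicate 1 or CD8αα 24 h replicate 1.

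Median responses under median scaling were 0.22 (CD8αβ), 0.071 (CD8αα) and 0.14 (mean), and subset differences −0.083 (0 h), −0.22 (24 h) and −0.17 (both times), while the median of all IDs moved by less than 0.1. The 123 other IDs with a mean signal over 10000 gave 0.14, 0.12 and 0.12 for the responses, in the same order. Their subset differences were −0.14, −0.19 and −0.16, so the shift is not particular to ribosomal protein IDs. On chip 1 alone the medians were −0.045 (CD8αα response) and 0.033 (subsets at 0 h). Leaving out 1 array gave −0.0099 to 0.095 for the CD8αβ response, −0.091 to −0.042 for the CD8αα response, 0.033 to 0.061 for the subsets at 0 h, −0.086 (without CD8αβ 24 h replicate 2) to −0.0028 (without CD8αβ 24 h replicate 1) for the subsets at 24 h, −0.014 to 0.022 for both times, −0.031 to 0.0076 for the mean response, whose sign thus rests on single arrays, and −0.11 to −0.028 for the difference of the responses. The cause was not tested.

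Deviations of same-numbered arrays from their group means correlated with r of 0.535 to 0.695 over all IDs and 0.307 to 0.760 over the 72, but with 2 arrays a group no label pairs them. With the replicate block the IDs that passed among all 9554 numbered 2480 against 238 (CD8αβ response), 3380 against 833 (CD8αα), 4786 against 2545 (mean), 187 against 46 (subsets at 0 h), 83 against 29 (24 h) and 359 against 82 (both times). Under the other alternatives, leaving out single arrays aside, these counts ran from 36 (chip 1 alone) to 563 (chip as a random block), 0 to 1372 and 306 to 3024 for the 3 responses, in the same order, and from 0 to 53, 0 to 35 and 12 to 89 for the subsets. Having 2 arrays a group limits these values, and whether signals near the top of the range were compressed was not tested.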

Other observations

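For 10 of the 72 IDs all 4 replicate 2 arrays lay on 1 side of all 4 replicate 1 arrays, 4 higher and 6 lower, against 5.56% and 5.97% of all IDs. Rps15 and Rps3a1 were among these 10, with mean differences, replicate 2 minus replicate 1, of −0.43 and 0.44. For Rpl30 and Rpl21 the differences were −0.45 and 0.32, with arrays of the replicate numbers overlapping. Rps15, of the small subunit, read 14.17, 13.96, 14.05 and 14.09 on the replicate 1 arrays (CD8αβ 0 h and 24 h, CD8αα 0 h and 24 h) and 13.62, 13.59, 13.81 and 13.49 on the replicate 2 arrays. Rps3a1 went the other way, with 9.96, 10.04, 10.13 and 10.02 against 10.54, 10.28, 10.64 and 10.46. For both genes this step exceeded the response to 24 h, −0.13 (SE 0.21) for Rps15 and −0.12 (SE 0.21) for Rps3a1.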
